A study of Mus musculus with 12 samples.

Results

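Col6a1, Col6a2, Col6a3, Col4a1, Thbs2, Pdgfrb and Cyp1b1, 7 of the 768 probes measured, were chosen by their joint variation between hearts of the same genotype, as seen in these same 12 hearts. That joint variation is therefore given here as a description, with no test. They were measured in hearts of E17.5 mouse embryos whose parents were both heterozygous for a knockout of Slc25a1, the gene of the mitochondrial citrate carrier. Of the 12 hearts 4 were wild type (WT), 4 were heterozygous for the knockout (HET) and 4 lacked both working copies (KO). Total RNA of each heart was read on the NanoString nCounter, which counts barcoded probes hybridised to transcripts, with no amplification step. The labels give no strain, litter, sex, clone or assay batch, and no treatment for any group, so none of these could be examined.

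Collagen VI is built from the chains encoded by Col6a1, Col6a2 and Col6a3, which assemble into beaded microfilaments around cells of the interstitium and are made mainly by fibroblasts and other mesenchymal cells. Collagen IV, to which Col4a1 contributes a chain together with Col4a2, forms the network of basement membranes and is made by endothelial, muscle and perivascular cells. Thbs2 encodes thrombospondin 2, a glycoprotein of the matrix that restrains vessel growth in mice. Pdgfrb encodes the receptor for platelet-derived growth factor B on pericytes and other mural cells. Cyp1b1 encodes a cytochrome P450 that oxidises oestradiol and retinoids and is inducible through the aryl hydrocarbon receptor.

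The 7 genes did not vary as a single group. Col6a1, Col6a2, Col6a3, Thbs2 and Cyp1b1 rose and fell together from heart to heart, and Col4a1 and Pdgfrb followed a pattern of their own. This division, into 5 and 2 genes, was made after the values had been seen, and it goes against the choice of all 7 for joint variation. No listed fibroblast (0 of 12), epicardial (0 of 7) or cardiomyocyte (0 of 18) marker was on the panel, and Pdgfrb was the sole member of 12 pericyte and smooth muscle markers. The cell type behind either pattern, and the labelled tissue itself, could therefore not be checked. In RNA of a whole heart, fewer cells of a type and less RNA per cell cannot be told apart.

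Slc25a1 separated the genotypes as labelled, with ratios to Tbp of 0.605 to 0.622 in WT, 0.306 to 0.392 in HET and 0.0819 to 0.117 in KO hearts. Tbp encodes the TATA-binding protein, and the authors deposited every value as a ratio to it. The Tbp counts recovered from these ratios ran from 276 to 433, and total counts from 1285512 to 1565516 per heart. A count of 276 has a counting error of 6.02%, which enters every ratio of that heart. Because Tbp itself varied, correlations are given after each heart was centred on the median of its genes, and many of them take another value on the deposited scaling, which is given for some of them only.

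RefSeq promoter windows (GRCm38.p6, 250 bases before to 50 bases after a start) were found for 6 of the 7 genes, and the 250 bases before the start are printed for 3. Col6a3 and Thbs2 are shown as the pair that varied most closely together, and Cyp1b1 as the gene with the widest swing. Each lies on the minus strand and reads 5′ to 3′, with capitals marking any match, on either strand, to GGGCGG (the GC box), to CCAAT (the box of that name), to TATAAA (the TATA box), to GCGTG (the core of the dioxin response element) or to CAGACA (a SMAD-binding element).
Col6a3, chr1:90843972-90844221: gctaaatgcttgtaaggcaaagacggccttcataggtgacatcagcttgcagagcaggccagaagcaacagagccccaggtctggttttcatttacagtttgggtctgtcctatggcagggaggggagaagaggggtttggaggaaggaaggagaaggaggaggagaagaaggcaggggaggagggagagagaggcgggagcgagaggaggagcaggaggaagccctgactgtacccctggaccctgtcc
Thbs2, chr17:14694263-14694512: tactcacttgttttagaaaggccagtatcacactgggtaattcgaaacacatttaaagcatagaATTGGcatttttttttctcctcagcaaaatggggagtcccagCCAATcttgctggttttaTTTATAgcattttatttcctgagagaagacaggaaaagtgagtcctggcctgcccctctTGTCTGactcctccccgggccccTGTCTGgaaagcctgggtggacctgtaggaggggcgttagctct
Cyp1b1, chr17:79715062-79715311: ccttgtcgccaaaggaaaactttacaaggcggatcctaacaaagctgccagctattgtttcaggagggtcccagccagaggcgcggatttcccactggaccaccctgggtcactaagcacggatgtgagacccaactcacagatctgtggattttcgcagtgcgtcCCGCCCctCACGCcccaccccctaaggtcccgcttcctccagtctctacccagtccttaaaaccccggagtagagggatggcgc
The matches differed between the genes that varied together. The Col6a3 window held none of the 5 motifs, and neither did that of Col6a1. The Thbs2 window held CCAAT at 2 sites, CAGACA at 2 and TATAAA at 1. The Cyp1b1 window held 1 site for GGGCGG, 1 for GCGTG and 1 for CAGACA, the last lying in the unprinted bases after the start. Col6a2 had 2 annotated windows, with GGGCGG in both and GCGTG in 1. None of the printed sites overlapped another. Over all 32851 RefSeq windows, GGGCGG was found in 35.7%, CCAAT in 37.4%, TATAAA in 13.6%, GCGTG in 32.4% and CAGACA in 21.04%. The windows of Col4a1 and Col4a2 lie on opposite strands and share 78 bases, at chr8:11312777-11312854. Col6a1 and Col6a2 lie on the same strand of chromosome 10, with 102114 bases between their nearest windows.

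Each chain of collagen VI had its highest level in the same heart of each genotype. The ratio of Col6a3 to Tbp in WT replicates 1 to 4 was 4.18, 7.48, 4.24 and 3.21, in HET hearts 4.56, 6.57, 3.98 and 8.16, and in KO hearts 6.10, 4.75, 4.897 and 4.05. WT replicate 2, HET replicate 4 and KO replicate 1 stood highest, HET replicate 2 came next among HET hearts, and the ranges of the genotypes overlapped. Col6a1 had ratios of 4.36, 6.23, 3.91 and 3.85 in WT, 4.76, 5.44, 3.59 and 6.57 in HET, and 4.60, 4.27, 3.59 and 4.53 in KO hearts. The same 3 hearts were highest, though KO replicate 1 exceeded KO replicate 4 by little. Col6a2 had ratios of 8.51, 10.997, 8.06 and 8.64 in WT, 9.27, 10.6, 9.28 and 11.01 in HET, and 9.52, 8.05, 7.86 and 8.19 in KO hearts. Its order at the top was the same, on a narrower range.

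Thbs2, which codes for no collagen, traced Col6a3 almost heart by heart. Its ratios were 3.75, 7.16, 4.01 and 3.02 in WT, 4.27, 5.79, 3.62 and 6.22 in HET, and 6.63, 5.59, 5.08 and 5 in KO hearts. WT replicate 4 was lowest of its genotype and WT replicate 2 highest, as for Col6a3, and KO replicate 4 was the lowest KO heart for both genes.

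Cyp1b1 swung most of all. Its ratios were 0.0906, 0.332, 0.0958 and 0.0748 in WT, 0.0799, 0.156, 0.105 and 0.522 in HET, and 0.397, 0.0791, 0.172 and 0.0806 in KO hearts. These ratios rest on 118, 226 and 158 counts in the 3 highest hearts and on 22 to 60 in the other 9. Cyp1b1 is thus the gene with the most counting noise among the 7.

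Col4a1 and Pdgfrb behaved differently. Col4a1 had ratios of 10.8, 10.1, 9.74 and 11.1 in WT, 10.8, 10.4, 11.4 and 8.91 in HET, and 7.51, 9.88, 9.25 and 9.63 in KO hearts. As ratios to Tbp, HET replicate 4 and KO replicate 1, among the highest for collagen VI, were the lowest of their genotype for this basement membrane collagen. Pdgfrb had ratios of 0.627, 0.608, 0.631 and 0.656 in WT, 0.569, 0.610, 0.730 and 0.536 in HET, and 0.535, 0.605, 0.636 and 0.584 in KO hearts. WT replicate 2, HET replicate 4 and KO replicate 1 had its lowest ratio to Tbp within their genotype. After centring, the lowest hearts for Col4a1 were WT replicate 4, HET replicate 1 and KO replicate 1. For Pdgfrb they were WT replicate 1, HET replicate 1 and KO replicate 4. The highest centred hearts were WT replicate 3, HET replicate 3 and KO replicate 3 for both genes, and these replicate numbers join no hearts in the labels.

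**Figure D1:**
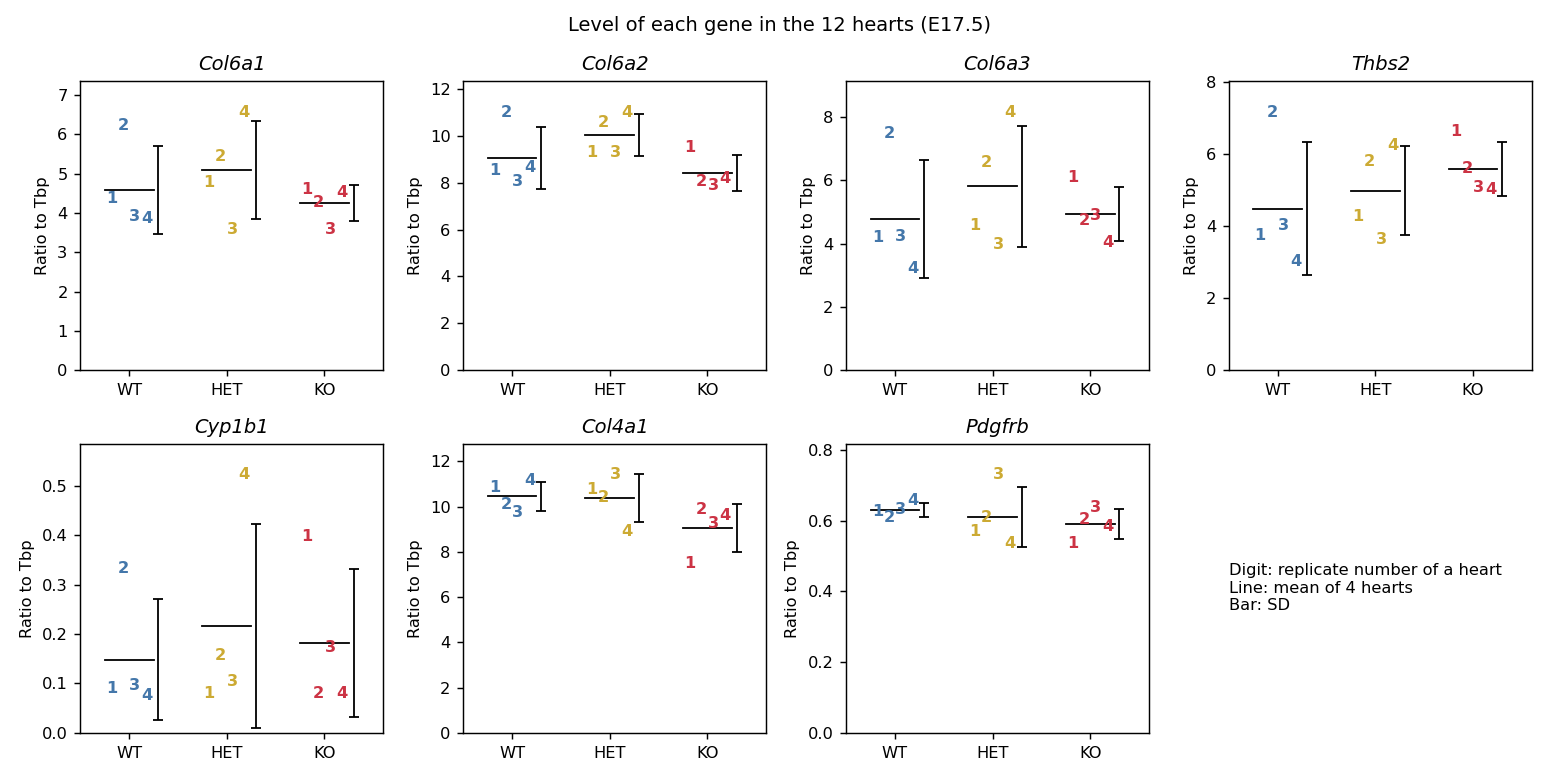
Ratio to Tbp (y axis, from 0) of each of the 7 genes in WT, HET and KO hearts; digits are replicate numbers, lines the means and bars the SD of 4 hearts. WT 2, HET 4 and KO 1 stand highest of their genotype for Col6a1, Col6a2, Col6a3, Thbs2 and Cyp1b1, and not for Col4a1 or Pdgfrb.

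The size of the swing within a genotype differed widely between the genes. The SD around the genotype mean was 1.19 on the centred log2 scale for Cyp1b1, the largest of 695 genes, against a median of 0.14 over all of them. Col6a3 had an SD of 0.53 (rank 22), Thbs2 0.48 (rank 31), Col6a1 0.37 (rank 88) and Col6a2 0.25 (rank 178). For Pdgfrb it was 0.15 (rank 323) and for Col4a1 0.08 (rank 582), so Col4a1 was among the steadier genes of the panel. From the lowest to the highest heart the centred level spanned 9.07-fold for Cyp1b1, 3.44-fold for Col6a3, 2.90-fold for Thbs2, 2.30-fold for Col6a1 and 1.72-fold for Col6a2. Pdgfrb spanned 1.35-fold and Col4a1 1.30-fold.

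Counting error alone gave much smaller spreads for the collagen VI chains. The SD of Col6a3 was 14.5 times that expected from its counts, and those of Thbs2, Col6a1 and Col6a2 were 12.9, 9.77 and 9.28 times it. The ratio was 5.03 for Cyp1b1 and 3.08 for Col4a1. For Pdgfrb, with 164 to 232 counts per heart, it was 1.43, close to what counting error alone would give.

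The 5 genes followed each other closely over the 12 hearts. Pearson's r of their deviations from the genotype means was 0.838 to 0.984 over the 10 pairs, with a mean of 0.924, and Spearman's rho was 0.671 to 0.986. Of all 241165 pairs of tested genes, 2.01% had an r at or above the lowest of these. The closest pair was Col6a3 and Thbs2, at 0.984. Col6a2 and Cyp1b1 followed at 0.979 and Col6a2 and Col6a3 at 0.950. Col6a1 had an r of 0.930 with Col6a3 and 0.890 with Col6a2, below its 0.936 with Thbs2. The loosest pair was Col6a1 and Cyp1b1, at 0.838. On the deposited scaling the 10 pairs had an r of 0.673 to 0.973, lowest for Col6a1 and Cyp1b1. All values in a heart share its library, depth and centring.

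Each of the 5 was also set against the mean of the other 4. Col6a3 followed that mean most closely, with r = 0.981, then Col6a2 with 0.970, Thbs2 with 0.962, Cyp1b1 with 0.927 and Col6a1 with 0.919. For Col4a1, set against the mean of all 5, r was -0.144, and for Pdgfrb it was 0.179. Without HET replicate 4 and WT replicate 2, the hearts farthest from the median, r was 0.957 for Col6a3, 0.936 for Thbs2, 0.928 for Col6a2, 0.843 for Cyp1b1 and 0.794 for Col6a1.

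WT replicate 2, HET replicate 4 and KO replicate 1 carried part of this agreement, most of all for Col6a1 and Cyp1b1. Without these 3 hearts the mean r among the 5 genes was 0.717 over the other 9. Col6a3 and Thbs2 kept an r of 0.970 and Col6a2 and Cyp1b1 of 0.877. Col6a1 and Col6a2 had 0.498, and Col6a1 and Cyp1b1 had 0.219. The tie of Col6a3, Thbs2 and Col6a2 thus ran through the remaining hearts, and that of Col6a1 with Cyp1b1 rested on the 3 hearts.

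Over the 12 hearts Col4a1 and Pdgfrb followed each other more closely than either followed the 5 genes, by Pearson's r. Their r with each other was 0.734, and 0.966 without the 3 hearts. With the 5 genes, r was -0.257 to -0.0741 for Col4a1 and -0.0813 to 0.316 for Pdgfrb. On the deposited scaling it was lower for both genes, at -0.836 to -0.535 for Col4a1 and -0.785 to -0.543 for Pdgfrb. Whether both were merely unrelated to the 5 genes or opposed them therefore depends on the scaling. By rank the centred values of Pdgfrb were nearer to those of the 5 genes, with a rho of 0.601 with Cyp1b1, 0.552 with Col6a2 and 0.378 with Col6a3. Its mean r with the other 6 genes was 0.267, and 0.401 with housekeeping centring. Without the 3 hearts r reached 0.648 for Pdgfrb with Cyp1b1, 0.550 for Pdgfrb with Col6a2 and 0.510 for Col4a1 with Cyp1b1, while with Col6a1 it was -0.393 for Pdgfrb and -0.506 for Col4a1.

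**Figure D2:**
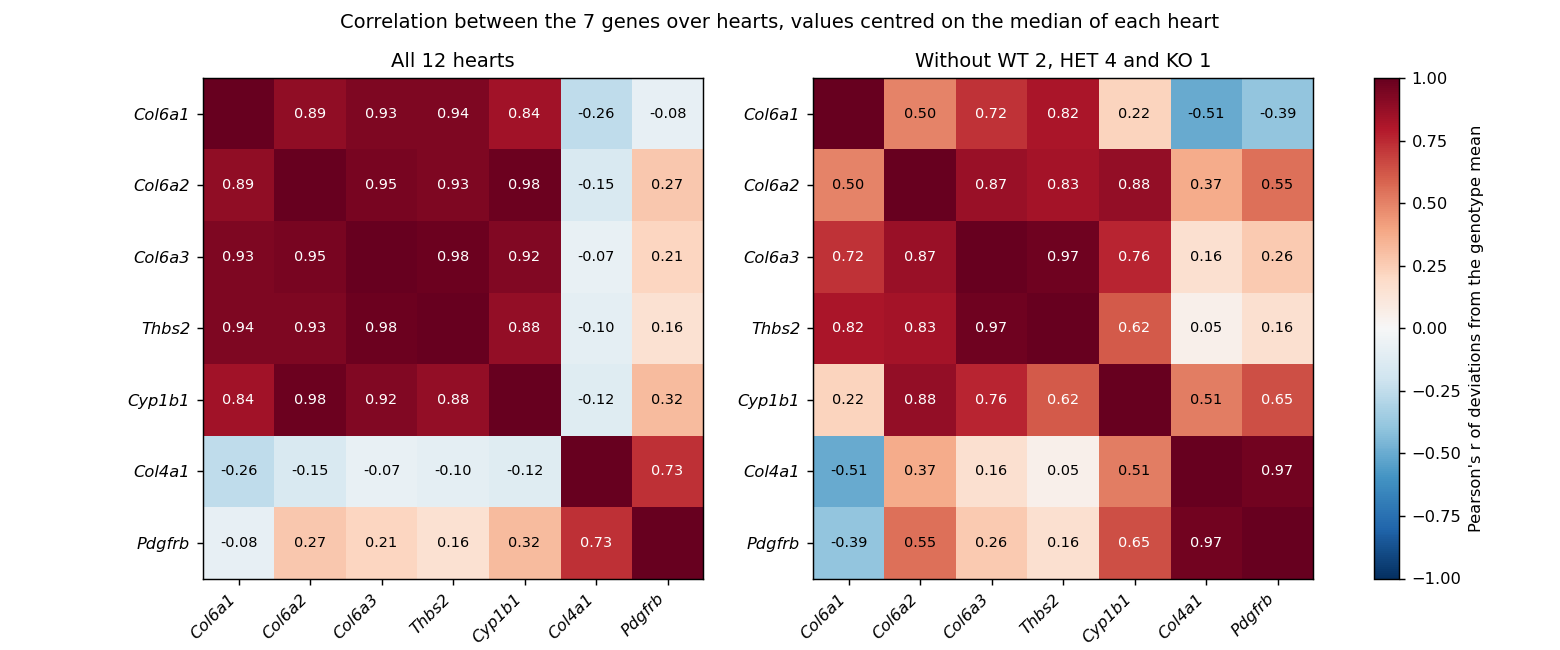
Pearson's r between the 7 genes of the deviations from the genotype mean, for all 12 hearts (left) and for the 9 hearts without WT 2, HET 4 and KO 1 (right); the colour scale runs from -1 to 1. Col6a1, Col6a2, Col6a3, Thbs2 and Cyp1b1 form a block of 0.84 to 0.98 on the left, and Col4a1 pairs with Pdgfrb in both panels.

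**Figure D3:**
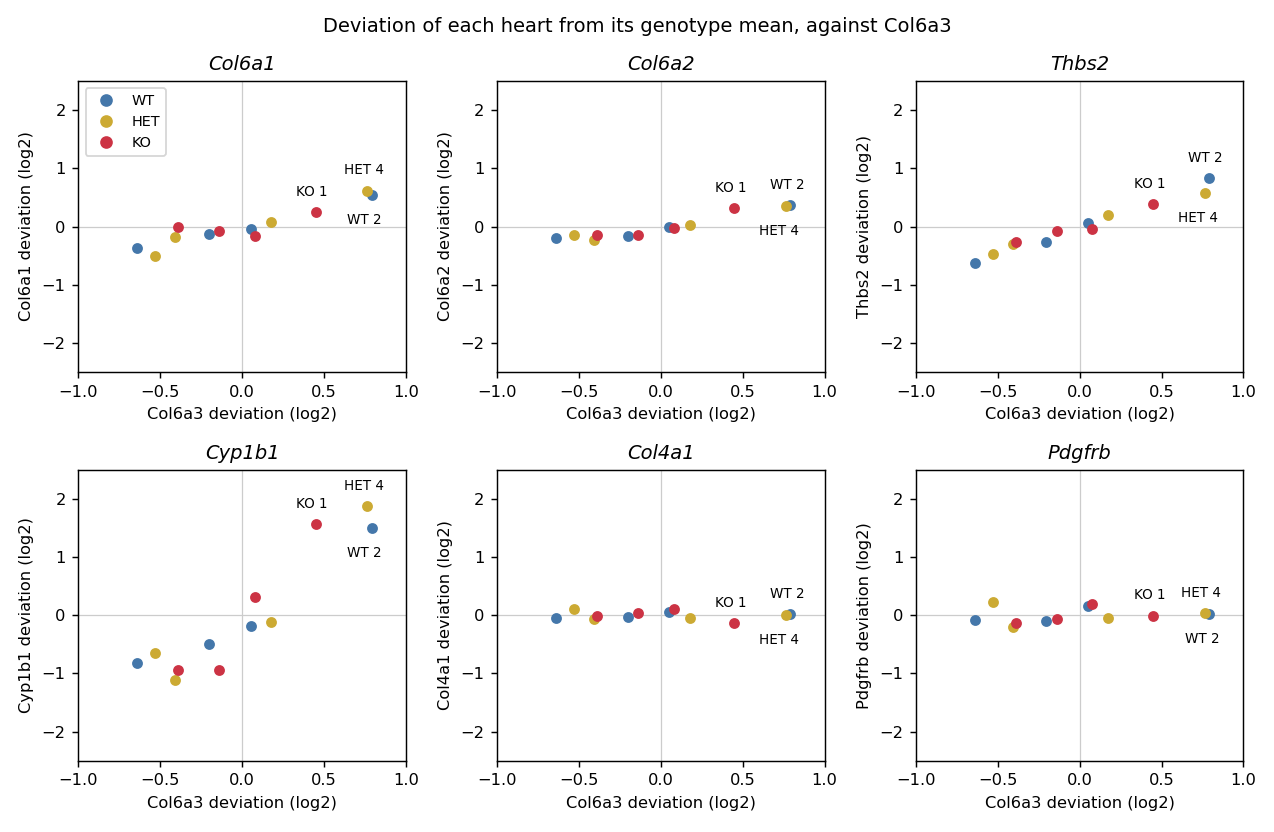
Deviation of each heart from its genotype mean (log2, centred on the median of the heart) for 6 genes on the y axes, against Col6a3 on the x axes. Thbs2 rises along with Col6a3 through all 12 hearts, Cyp1b1 reaches 1.88 in HET 4, and Col4a1 and Pdgfrb stay between -0.21 and 0.22.

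Dividing 1 gene by another within a heart removes Tbp and every scaling. The ratio of Col6a1 to Col6a2 spanned 1.54-fold over the 12 hearts, that of Col6a3 to Col6a1 1.64-fold and that of Col6a3 to Col6a2 2.00-fold, so the chains of collagen VI moved together but not in fixed proportion. Col4a1 and Col4a2, the partner chains of collagen IV, kept a tighter proportion, with a span of 1.14-fold. Between the collagens, the ratio of Col6a2 to Col4a1, relative to its WT mean, reached 1.25 in WT replicate 2. It was 1.42 in replicate 4 and 1.17 in replicate 2 of the HET hearts, and 1.46 in KO replicate 1. In the other 8 hearts it was 0.892 to 0.990, with WT, HET and KO hearts among them. The excess of collagen VI over collagen IV thus set the same hearts apart without any reference gene.

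The collagen IV pair and the mural cell receptor had their own neighbours, named here after the values were seen. Over the 12 hearts Col4a1 was closest to Tlr4, a receptor for bacterial lipopolysaccharide, with r = 0.884, and next to Col4a2 with 0.819. Col4a2 had a mean r of -0.604 with the 5 genes, and 0.0347 without the 3 hearts. Pdgfrb was closest to the tumour suppressor gene Trp53, with r = 0.924, and to Smad4, the common mediator of TGF-beta signals, it had 0.806. On the deposited scaling Pdgfrb had 0.900 with Trp53 and 0.550 with Smad4, and Col4a1 had 0.911 with Tlr4 and 0.970 with Col4a2. With Pdgfb, the gene of its ligand, Pdgfrb had an r of 0.0410, against 0.573 on the deposited scaling and 0.235 without the 3 hearts. Pdgfb itself opposed the 5 genes, with a mean r of -0.831, and -0.449 without the 3 hearts.

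The genes with the highest mean r with the 7 were a mixed group. Only 1 other collagen, Col4a2, was tested, and it was not among them. By mean r with all 7, the first 10 were Cacng7, Rimklb, Cd63, Pycr1, Npr2, Tkt, Egfr, Ctsz, Ctsl and Trf, at 0.648 to 0.722. Against the 5 genes that moved together their mean r was 0.733 to 0.944. Transferrin (Trf), which carries iron in plasma, had 0.944, the proline-synthesis enzyme Pycr1 0.942, and Egfr, the receptor of epidermal growth factor, 0.931. Cathepsin Z (Ctsz) and the tetraspanin Cd63, both of lysosomes and endosomes, had 0.932 and 0.924.

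Egfr shows how close this came. Its ratios were 0.207, 0.592, 0.220 and 0.228 in WT, 0.257, 0.381, 0.253 and 0.543 in HET, and 0.452, 0.198, 0.232 and 0.248 in KO hearts. The highest heart of each genotype was again WT replicate 2, HET replicate 4 and KO replicate 1, and its r with Col6a2 was 0.982. On the deposited scaling Egfr, Trf and Pycr1 had mean r values of 0.892, 0.899 and 0.871 with the 5 genes. For the other 7 of the 10 followers that scaling split the group. Rimklb and Cacng7 had 0.862 and 0.813, while Ctsz had 0.478, Ctsl 0.385, Npr2 0.282, Cd63 0.111 and the pentose phosphate enzyme Tkt 0.0169. The place of these last 5 among the followers rests on the centring.

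Other genes of the matrix did not follow as a family. Of the thrombospondins, Thbs1 had a mean r of 0.637 with the 5 genes. The laminin chains Lama4, Lamb1 and Lamc1, of basement membranes, had 0.110, -0.0775 and -0.191. Among matrix receptors, the integrin subunits Itga11, which binds collagen, and Itgb5 had 0.595 and 0.557, while Itga1 had -0.752 and the fatty acid transporter and thrombospondin receptor Cd36 had -0.859. Of the TGF-beta pathway, Smad2, Smad3 and Smad4 had 0.278, 0.370 and 0.456. Of the aryl hydrocarbon receptor pathway, Cyp1a1 and Cyp1a2, P450 genes that are targets of that receptor, had -0.298 and -0.346 and the quinone reductase Nqo1 0.372. Cyp1b1 was thus not joined by its related P450 genes, on mean counts of 47.2 for Cyp1a1 and 21.5 for Cyp1a2. On the deposited scaling all of these but Thbs1, Itga11 and Itgb5 had a mean r below 0.

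The genes with the lowest mean r with the 7 were mostly genes of mitochondria and energy metabolism. By mean r with all 7 the last 10 were Gcdh, Atp5k, Mlycd, Fh1, Pfkm, Ndufa12, Ndufb4, Ndufb10, Fdx1 and Cox14, at -0.714 to -0.684. They opposed mainly the 5 genes, with a mean r of -0.948 to -0.843. Only 1 gene was at or below -0.7 with all 7. Against the 5 genes Ndufb4, a subunit of respiratory complex I, had -0.948, the ATP synthase subunit Atp5k -0.946, the fumarase Fh1 -0.928 and the muscle phosphofructokinase Pfkm -0.913. In the 3 hearts highest for collagen VI the centred log2 value of Ndufb4 stood at -0.23, -0.18 and -0.15 from the mean of its genotype (WT replicate 2, HET replicate 4, KO replicate 1), the lowest heart each time. For Eno3, the muscle enolase, these values were -0.31, -0.26 and -0.14. The opposing genes moved less than the collagen VI chains, with an SD of 0.13 for Ndufb4 against 0.53 for Col6a3.

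By list, the opposition covered most measured genes of oxidative metabolism. Of the 688 tested genes outside the 7, 7.56% had a mean r of at least 0.7 with the 5 genes and 17.9% had one of at most -0.7, with a median of -0.0826. Of 17 complex I subunits, 16 (94.1%) were at or below -0.7, with a median of -0.897. Of 16 subunits of complexes II to V, 14 (87.5%) were, with a median of -0.926. Of 20 genes of the tricarboxylic acid cycle and pyruvate dehydrogenase, 15 (75%) were, of 20 genes of glycolysis and glucose transport, 13 (65%), and of 7 genes of fatty acid oxidation, 5 (71.4%). Among muscle-type metabolic enzymes it was 5 of 6, Pgam2 being the exception at -0.610. Cell cycle genes had 1 of 12 at or below -0.7 and a median of -0.439.

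Without WT replicate 2, HET replicate 4 and KO replicate 1 these counts were lower. Over the other 9 hearts 5.81% of the 688 genes were at or below -0.7 and 3.2% at or above 0.7. Of the complex I subunits 4 of 17 were then at or below -0.7, and 11 of 16 of complexes II to V, though all 17 and all 16 were below 0. Of the tricarboxylic acid cycle genes 9 of 20 were, with 4 above 0, of the glycolysis genes 4 of 20, with 2 above 0, of the fatty acid oxidation genes 1 of 7, with 1 above 0, and of the muscle-type enzymes 3 of 6. On the deposited scaling the median of all 688 genes was itself -0.497, and 161 of the 688 were at or below -0.7. Of the complex I subunits 16 of 17 were, and 16 of 16 of complexes II to V. The tricarboxylic acid cycle and glycolysis lists had 13 of 20 each and fatty acid oxidation 4 of 7. Muscle-type enzymes had 5 of 6 and cell cycle genes 5 of 12. The first component of the variation within genotypes held 42.9% of the variance of all genes, and the part of each list in it was not computed. All these values come from the same hearts, so the lists are not separate observations.

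**Figure D4:**
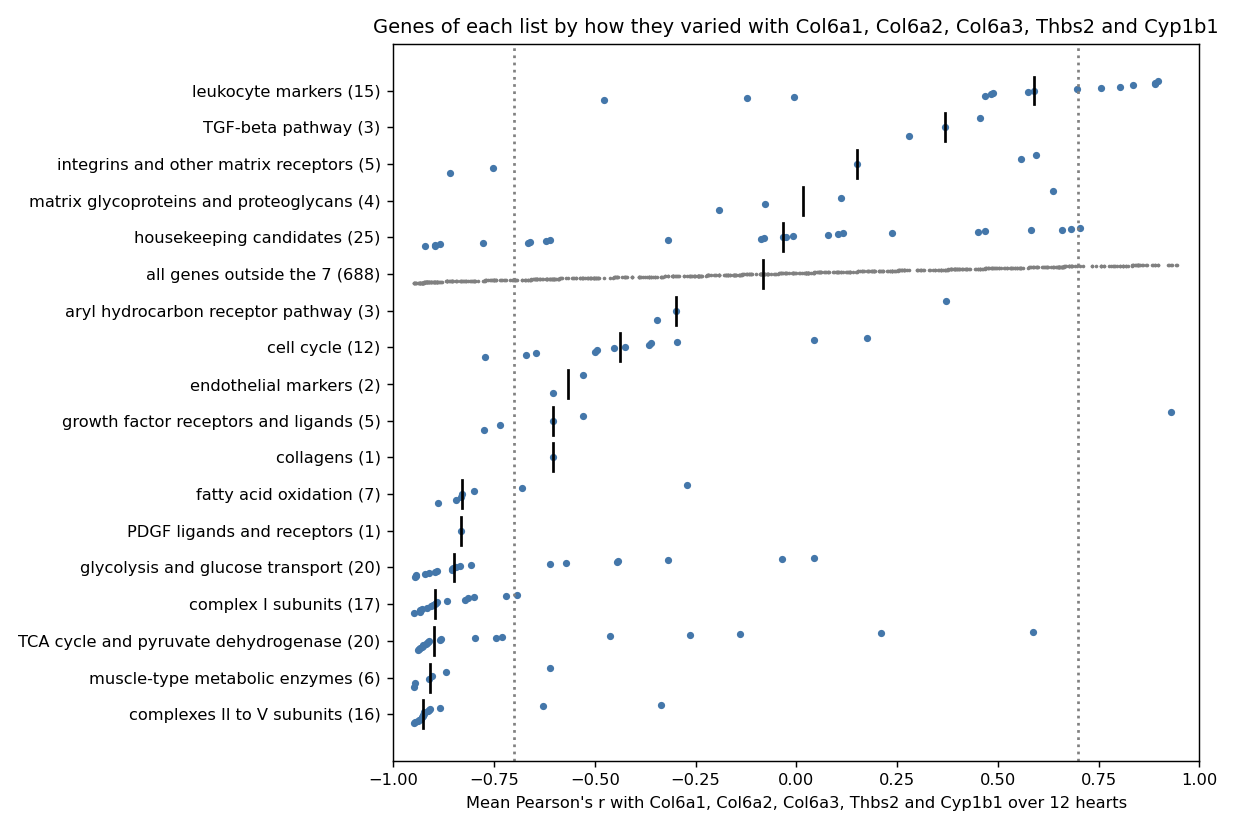
Mean Pearson's r of each tested gene with Col6a1, Col6a2, Col6a3, Thbs2 and Cyp1b1 over 12 hearts (x axis), by list, with the number of genes in brackets; points are genes, black lines list medians and dotted lines -0.7 and 0.7. Subunits of the respiratory chain crowd at the left, with medians of -0.897 and -0.926, and leukocyte markers lie mostly to the right, with a median of 0.591.

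Some leukocyte markers followed the 5 genes. Of 32 listed, 22 were on the panel and 15 were tested. Of the 15, 6 (40%) had a mean r of at least 0.7, against 7.56% of all genes, and 3 lay below 0, with a median of 0.591. The highest were the mast cell protease genes Cpa3 and Tpsb2, at 0.899 and 0.835, Hdc, which makes histamine, at 0.891, and H2-Aa, a class II antigen-presenting chain, at 0.890. Another mast cell gene, the receptor subunit Ms4a2, had -0.476. The macrophage gene Cd68 had 0.755 and the pan-leukocyte phosphatase Ptprc 0.696. Summed over the list, the ratio to Tbp was 6.41, 5.52 and 5.70 in the hearts highest for the 5 genes (WT replicate 2, HET replicate 4, KO replicate 1) and 3.33 to 5.44 in the other 9. Without the 3 hearts 3 of 15 markers were at or above 0.7, against 3.2% of all genes, and 4 lay below 0, with a median of 0.282. The part of leukocytes in the joint variation was not tested.

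The reference gene moved the same way. Tbp counts per 1000000 counts of a heart were 256, 296 and 309 in the same 3 hearts, each the highest of its genotype, and 188 to 271 in the other 9. After centring, its r with the 5 genes was 0.655 for Col6a1 to 0.848 for Cyp1b1, and it was 0.580 with Pdgfrb and 0.151 with Col4a1. On the centred log2 scale Tbp was highest of its genotype in HET replicate 4 and KO replicate 1. In WT replicate 2 it was 0.071 above the genotype mean, against 0.152 in WT replicate 3. A ratio to Tbp is lowered where Tbp is high, and for WT replicate 2 how far depends on the scaling. Both as ratios to Tbp and after centring, the 5 genes were highest of their genotype in these 3 hearts. Endothelial markers on the panel, Flt1 and Nos3 (2 of 11), had mean r values of -0.603 and -0.529 with the 5 genes, and of -0.487 and -0.0200 without the 3 hearts.

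Between genotypes none of the 7 genes was called in KO against WT hearts, a comparison that addresses what loss of the citrate carrier does to them. Their choice did not use the difference between genotypes. It used the variation within genotypes, from which limma takes its error. Such a choice can widen the intervals and make a call less likely, so 0 of 7 does not show that the genes were unchanged. limma called 0.144% of the 695 tested genes at an adjusted p under 0.05, which was Slc25a1 alone, and 0 of the 7. None of the 7 had an unadjusted p under 0.05 either, against 77 of all genes, and limma with voom weights called 1 of all genes and 0 of the 7. Their median log2 change was -0.09, against -0.13 for all genes.

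Thbs2 had the largest change, from 4.48 ± 1.83 in WT to 5.58 ± 0.751 in KO hearts (SD, n = 4). This is a log2 change of 0.38 (SE 0.24, 95% interval -0.12 to 0.89), with a limma adjusted p of 0.399. WT replicate 2 lay above every KO heart, so the groups overlapped. Col4a1 was 10.46 ± 0.648 in WT and 9.07 ± 1.07 in KO hearts (SD, n = 4), with a log2 change of -0.21 (95% interval -0.47 to 0.05) and a limma adjusted p of 0.382. For Col6a1, Col6a2, Col6a3 and Pdgfrb the log2 changes were -0.09, -0.10, 0.11 and -0.10. The wide swing of Cyp1b1 left its change undefined, at 0.24 with an interval from -1.06 to 1.55.

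HET against WT and KO against HET hearts gave the same count. limma called 0.144% and 0.432% of the 695 genes, and 0 of the 7 in each. In HET against WT hearts the gene called was Slc25a1 alone. In each, 0 of the 7 had an unadjusted limma p under 0.05, against 22 and 27 of all genes. With voom weights limma called 1 and 5 of all genes, and 0 of the 7. In HET hearts 5 of the 7 lay higher than in WT, and the median of their log2 changes was 0.15 against -0.07 for all genes. In KO against HET hearts 6 of 7 lay lower, with a median of -0.19 against -0.08. The shares of all genes that lay higher or lower were not counted. Since 5 of the 7 varied together, these counts are not 7 separate observations. The change nearest the threshold was that of Col6a2, 10.03 ± 0.893 in HET and 8.40 ± 0.753 in KO hearts (SD, n = 4), with a log2 change of -0.26 (95% interval -0.52 to 0.01) and a limma adjusted p of 0.937. After median centring limma called 0.288% of the genes and again 0 of the 7. Col4a1 then had an unadjusted limma p of 0.0359 in this comparison and a limma adjusted p of 0.537. With that centring 58 of the 695 genes had an unadjusted limma p under 0.05 here. These comparisons share hearts with KO against WT and are not separate observations.

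**Figure D5:**
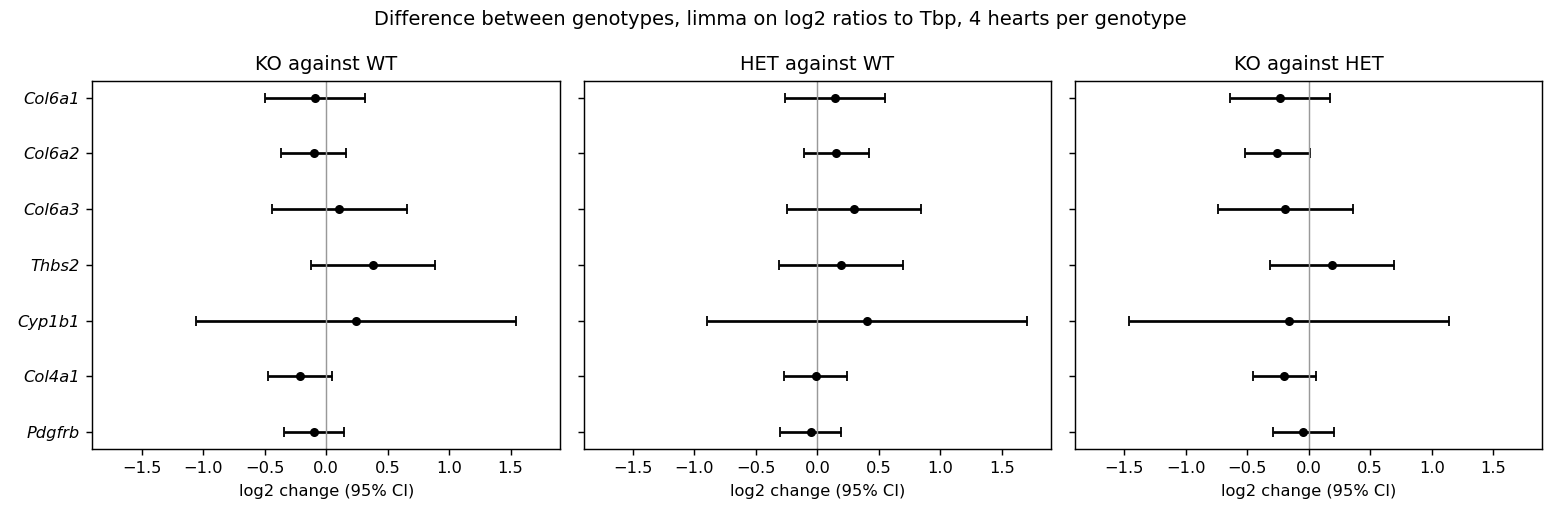
log2 change of each gene (points) with its 95% confidence interval (bars) in the 3 comparisons of genotypes, from limma on log2 ratios to Tbp with 4 hearts per genotype. Every interval holds 0, and that of Cyp1b1 runs from -1.06 to 1.55 in KO against WT.

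Ratios of 2 of the 7 genes within a heart were compared between genotypes for all 21 pairs, a comparison added after the values had been seen. The choice of the 7 for joint variation within genotypes can narrow the spread of such ratios and make a gap more likely. The shares and exact p values are therefore a description, and all gene pairs are not a like background for them. In KO against WT hearts 1 pair (4.76%) did not overlap, against 10.4% of all 241165 gene pairs. It was Thbs2 and Col6a3. The ratio of Thbs2 to Col6a3, relative to its WT mean, was 0.958 to 1.02 in WT, 0.815 to 1.00 in HET and 1.11 to 1.32 in KO hearts. Each KO heart thus had a higher ratio than any WT or HET heart here, but such gaps between KO and WT hearts were more frequent over all gene pairs (10.4%). The two-sided exact permutation p was 0.0286, the smallest that 4 against 4 hearts can give, and 0.6 after Benjamini-Hochberg adjustment over the 21 pairs. In KO against HET hearts 3 pairs (14.3%), each with Thbs2, did not overlap, against 5.74% of all pairs, and the lowest exact permutation p was 0.0286 (0.2 adjusted). Since these 3 pairs share Thbs2, they are not separate observations. In HET against WT hearts 0 of 21 pairs were apart, against 3.85% of all pairs, with a lowest exact permutation p of 0.143 (0.833 adjusted). After adjustment none of the pairs passed the threshold.

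Thbs1, the other thrombospondin, was not called either. Its ratios were 0.703, 0.735, 0.732 and 0.425 in WT, 0.694, 0.925, 0.922 and 0.834 in HET, and 0.905, 0.822, 0.923 and 0.852 in KO hearts. All KO hearts stood above all WT hearts, while the HET hearts overlapped both. The share of all genes with such a gap was not counted, so it is not read as a result about Thbs1. The log2 change was 0.46 (SE 0.17), with a limma adjusted p of 0.371. Unadjusted, its limma p was 0.0145, and 77 of the 695 genes were under 0.05 in this comparison. Its r with Thbs2 within genotypes was 0.694.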

How the data were processed

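The authors deposited, for each of 768 probes in 12 mouse hearts, a ratio to Tbp. Nothing used here states the panel, any background subtraction or the software. In each heart a whole number, read as the Tbp count, turned all ratios into whole counts (tolerance 0.01). Every heart is a sample of its own, by the labels, and 767 symbols matched RefSeq.

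Values were log2((count + 1)/Tbp count). The 695 genes whose counts averaged 20 or more were tested with limma 3.58.1 (R 4.3.3), with a mean per genotype and Benjamini-Hochberg adjustment over all of them; 72 probes fell below that minimum and Tbp was left out. Correlations used deviations from the genotype mean after each heart was centred on its median log2 value. Exact permutation tests used scipy 1.17.1 under Python 3.11.15. The limma fit and the correlations were tested on simulated data.

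The 7 genes, the gene lists and the tests were chosen with earlier results of these data known. Other genes are named as the 10 with the highest and the 10 with the lowest mean r, as measured genes of the matrix, integrin, PDGF, TGF-beta and aryl hydrocarbon receptor lists, and as the extremes of other lists; Tlr4, Trp53, Cpa3, Tpsb2, H2-Aa, Cd68, Ptprc and other genes outside these groups were chosen after their values were seen. Alternatives were other scalings (median, housekeeping, quantile), a pseudocount of 5, a minimum of 50 or none, voom weights, Spearman's rho, a replicate block and leaving out hearts.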

Additional observations from a re-analysis of the deposited data

Results flagged for a closer look

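Over the 7 genes, 3 genotypes and both scalings, 42 groups of 4 hearts were examined for a heart far from the rest. Cyp1b1 in WT replicate 2 was the only such value. Its ratio to Tbp of 0.332 stood apart from the other WT hearts, at 0.0748 to 0.0958, by a gap of 0.919 of the range of the group, where 0.829 is the limit for 4 values. The same value was within the limit on the centred log2 scale. Chance places about 1 group in 20 beyond that limit.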

How the results depend on the processing

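In every alternative run, 0 of the 7 genes was called in each of the 3 comparisons, and the lowest limma adjusted p among them was 0.162. The number of all genes called was 1 in KO against WT hearts, and 3 with median centring, 4 with housekeeping centring or quantile normalization and 2 without the 3 hearts highest in matrix genes. In HET against WT hearts it was 1, and 0 with median or housekeeping centring and without those 3 hearts. In KO against HET hearts it was 3, and 5 with voom weights. Leaving out 1 heart at a time gave 1, 0 to 1 and 1 to 3 calls.

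Of 441 member values under the alternatives, 31 changed sign, none of them called. In KO against WT hearts the log2 change of Col6a1 became 0.040, 0.076 and 0.094 with median centring, housekeeping centring and quantile normalization, and 0.026 without the 3 hearts. That of Col6a2 became 0.030, 0.065 and 0.116 under the same 3 scalings, that of Pdgfrb 0.031 and 0.067 with median and housekeeping centring, and that of Col4a1 0.013 with quantile normalization. In HET against WT hearts Col4a1 moved to 0.065, 0.087 and 0.095 under the 3 scalings and 0.041 without the 3 hearts, and Pdgfrb to 0.025 and 0.047 with the 2 centrings. In KO against HET hearts Pdgfrb moved to 0.0063 and 0.020 with them. Leaving out 1 heart at a time, the KO against WT change ranged from -0.165 to 0.066 for Col6a1, -0.060 to 0.347 for Col6a3 and -0.23 to 0.72 for Cyp1b1. The HET against WT change ranged from -0.063 to 0.057 for Col4a1, -0.143 to 0.0055 for Pdgfrb and -0.15 to 0.88 for Cyp1b1. The KO against HET change ranged from -0.104 to 0.044 for Pdgfrb and -0.64 to 0.39 for Cyp1b1.

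The mean r among the 5 genes, 0.924, was 0.848 on the deposited scaling, 0.862 as Spearman's rho, 0.717 without the 3 hearts and 0.895 to 0.935 without any 1 heart. The mean r among all 7 was 0.483. Genes with a mean r of at least 0.7 with all 7 numbered 3. They numbered 0 on the deposited scaling, with quantile normalization and with deviations from the mean of all hearts, 24 with housekeeping centring, 6 by rho, 7 at a mean count of 50 and 0 to 16 without any 1 heart. Those at or below -0.7 numbered 1, and 0, 0, 0, 32, 14 and 7 under those settings, 5 without the 3 hearts and 0 to 51 without any 1 heart. With the 5 genes, 52 genes at or above 0.7 became 21 on the deposited scaling, 96 with housekeeping centring and 22 without the 3 hearts, and 123 at or below -0.7 became 40 without them. The cause of these differences was not tested. Over all genes, hearts with the same replicate number did not consistently deviate together (r = -0.51 to 0.36). The labels state no pairing by these numbers, and a weaker tie between such hearts was not tested. With a replicate block, 37 and 99 genes were at or beyond 0.7 and -0.7 with the 7 and 110 at or above 0.7 with the 5, and the mean r of Pdgfrb with the other members was 0.602. Cyp1b1 and Pdgfrb are the genes limited most by counting depth.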
